A study of Homo sapiens with 6 samples.

Results

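This account covers 8 genes that carry iron into the cell, store it, export it, sense it or release it from heme: TFRC, SLC11A2, FTH1, FTL, SLC40A1, HMOX1, IREB2 and ACO1. They were chosen by name from the 60504 genes of the deposited table, each symbol occurred in 1 row, and all 8 passed the filter of a mean of at least 1 TPM, the length-scaled share of a library's transcripts, over the 6 libraries. RNA came from HCC827, a human lung adenocarcinoma line with mutant EGFR. In the 3D group tumoroids were grown for 12 to 16 days in drops of Matrigel, an extracellular matrix preparation, here of a kind reduced in growth factors. In the 2D group they grew for 4 to 6 days as monolayers in uncoated flasks. Both groups held 3 poly(A) libraries, received RPMI 1640 medium with fetal bovine serum (the label for 3D says only 1640), and carried no other genetic or drug treatment in the labels. Culture time, seeding and gel contact changed together with geometry, and their effects cannot be told apart. Nothing in the labels tells if the 3 libraries of a culture type were grown separately. The p-values therefore cover the spread among these libraries alone, and that spread may be technical.

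Cells take up transferrin-bound iron through the transferrin receptor and move it out of the endosome through the divalent metal transporter. They keep spare iron inside ferritin shells built of heavy and light chains, and export iron through ferroportin. Heme oxygenase adds iron from broken-down heme. The iron regulatory proteins bind iron-responsive elements, short hairpins in mRNA, when iron is scarce: binding near the start of an mRNA blocks its translation, and binding in the 3′ UTR protects it from decay. Much of this control therefore acts on translation, which RNA levels do not show.

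Hairpins of 5 of the 8 mRNAs, all known to carry an iron-responsive element, are shown with their place in the 5′ UTR or 3′ UTR. Only elements that matched the pattern described below the sequences are listed, so these mRNAs may hold others. What control they exert in these cells was not tested. They were read from GENCODE 29 transcripts on GRCh38, 5′ to 3′ in DNA letters. Capitals mark the bulged C and the CAGTG of the loop.
FTH1, 5′ UTR, chr11:61967574-61967602, minus strand: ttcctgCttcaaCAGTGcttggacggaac
FTL, 5′ UTR, chr19:48965335-48965363, plus strand: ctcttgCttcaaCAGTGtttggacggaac
SLC40A1, 5′ UTR, chr2:189580661-189580689, minus strand: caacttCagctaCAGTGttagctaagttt
TFRC element 1, 3′ UTR, chr3:196050979-196051007, minus strand: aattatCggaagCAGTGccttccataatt
TFRC element 2, 3′ UTR, chr3:196050575-196050603, minus strand: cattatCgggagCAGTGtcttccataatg
TFRC element 3, 3′ UTR, chr3:196050510-196050538, minus strand: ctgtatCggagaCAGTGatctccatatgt
TFRC element 4, 3′ UTR, chr3:196050463-196050491, minus strand: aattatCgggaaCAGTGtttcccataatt
SLC11A2, 3′ UTR, chr12:50988269-50988297, minus strand: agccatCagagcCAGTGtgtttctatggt

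The search took the sense strand of the mRNA only, for a C, any 5 bases, CAGTG and any 6 bases, and counted pairs, G-T included, between the 5 bases before and the 5 bases after the loop. All 5 pairs formed in the listed elements of FTH1, FTL, SLC40A1 and TFRC, and 4 of 5 formed in that of SLC11A2. In the longest coding transcript of 19684 genes, a match with 5 pairs was found in 1.32% and one with at least 4 pairs in 10.1%. The genes named here were searched over all their coding transcripts, so these shares are not a matched background for them. ACO1 and IREB2 each held a match with 4 pairs in the 3′ UTR, and HMOX1 held none with 4 or more; a match describes letters and is not a shown site. The FTH1 and FTL elements shared 26 of 29 bases, whereas FTH1 and SLC40A1 shared 13. The SLC40A1 element lay in 1 of 5 coding transcripts and that of SLC11A2 in 5 of 18. The deposited values are per gene, so transcripts with and without an element could not be separated.

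Some facts of the whole table bear on the values below. TPM is a share of each library's RNA and keeps no depth, so the depth is unknown and no counting interval is given. Transcripts of the mitochondrial genome took 12.3% of TPM in 3D replicate 3, against 19.4% in each of the other 3D libraries, and 14.4% to 17.5% in 2D. On the second principal component, which held 19.5% of the variance, replicate 3 scored -18.6 in 3D and -42.1 in 2D, while the other 4 libraries scored 3.99 to 25.6. Member results that change without those libraries are given both ways. Of 15042 tested genes, 1536 were higher and 319 lower in 3D (limma on log2(TPM + 1), Benjamini-Hochberg adjusted p under 0.05), and the median gene lay at 0.12 (log2). With median-ratio scaling the numbers were 943 and 669 and the median -0.03, and with quantile normalization they were 869 and 576 and -0.04. The 7 epithelial markers, all expressed, summed to 4525 to 8343 TPM in 3D and 7285 to 9683 TPM in 2D, with a median log2 difference of -0.51. Of these, the keratin gene KRT7 fell by 0.81 (limma, adjusted p = 0.0356) and the other 6 did not pass. Among those, KRT8, KRT18 and KRT19 had log2 differences of -0.65, -0.77 and -0.51, with no overlap between the cultures for KRT18. NKX2-1 lay at 0.08. EPCAM and CDH1 stood at 567 to 589 and 178 to 232 TPM in 3D, against 573 to 631 and 152 to 219 TPM in 2D. The 6 erythroid markers summed to 0.10 to 0.46 TPM in 3D and 0.00 to 0.62 TPM in 2D, with HBB and HBA1 at 0 in all libraries. The 8 macrophage markers summed to 50.2 to 91.7 TPM in 3D and 71.6 to 99.0 TPM in 2D, nearly all from the lysosomal protein gene CD68, while AIF1 was at 0 and PTPRC reached 0.25 TPM. Of 6 hepatocyte markers, which summed to 566 to 635 TPM in 3D and 300 to 406 TPM in 2D, FGB (346 to 482 TPM in 3D and 210 to 303 TPM in 2D) and SERPINA1 (152 to 220 TPM in 3D and 89.2 to 102 TPM in 2D) held nearly the whole sum, and both rose (limma, adjusted p = 0.0439 and 0.0235), while ALB reached 0.77 TPM and HAMP 0.05 TPM. The 6 fibroblast markers summed to 6.99 to 12.1 TPM in 3D and 2.10 to 2.96 TPM in 2D, mostly COL1A1, with COL3A1 at 0 and COL1A2 at most 0.01 TPM. The 5 endothelial markers summed to 1.51 to 4.01 TPM in 3D and 0.68 to 1.48 TPM in 2D. The part of these marker differences in the results below was not tested. In bulk RNA, fewer cells expressing a gene and less of its RNA per cell cannot be told apart.

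**Figure D1:**
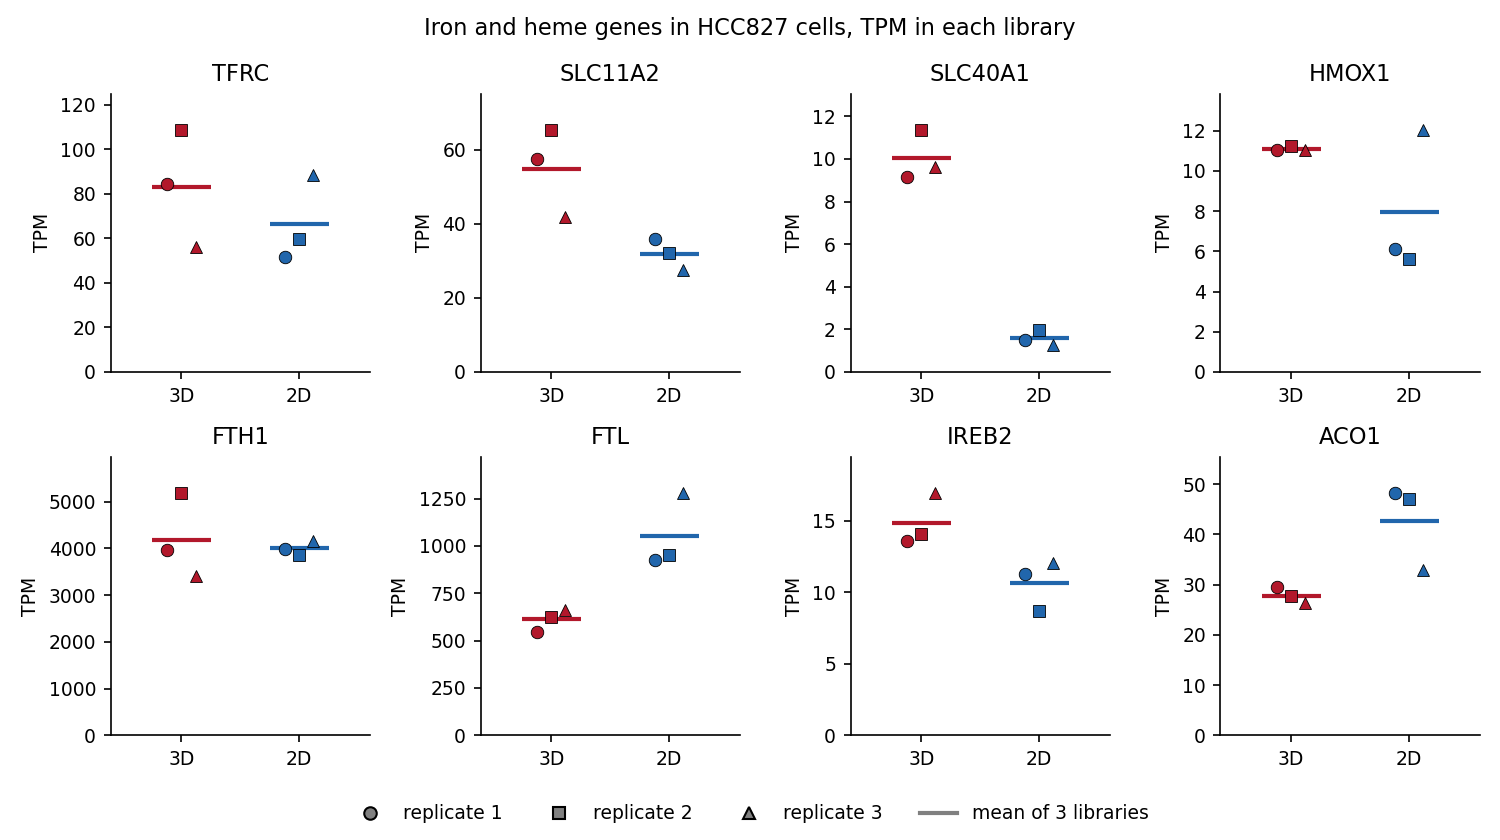
TPM of each of the 8 genes in the 3 libraries from 3D culture (red) and the 3 from 2D culture (blue); symbols give the replicate number, bars the mean, and every axis starts at 0. SLC40A1 stood at 9.14 to 11.4 TPM in 3D and 1.28 to 1.98 TPM in 2D, and TFRC, HMOX1 and FTH1 overlapped between the cultures.

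The export gene SLC40A1 had the largest change of the 8. SLC40A1 encodes ferroportin, the iron exporter of vertebrate cells, and spans chr2:189560579-189583758 on the minus strand. It had 9.14, 11.4 and 9.63 TPM in 3D, against 1.51, 1.98 and 1.28 TPM in 2D. The lowest 3D library was well above the highest 2D library, and the ratio of the means was 6.32. On the log2(TPM + 1) scale it rose by 2.10 (SE 0.18, limma, adjusted p = 0.00104), and 55 of the 15042 genes had a smaller p. The call held under all 16 alternative settings, with adjusted p up to 0.0106. The size depended on the pseudocount, at 2.60 with 0.1 and 1.19 with 5.

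Of the uptake genes, SLC11A2 rose and TFRC did not pass the test, and the difference between them was not tested. SLC11A2, also called DMT1, encodes the divalent metal transporter that carries ferrous iron across the endosomal membrane and lies at chr12:50979401-51028566. It had 57.5, 65.4 and 41.8 TPM in 3D, against 36.0, 32.0 and 27.5 TPM in 2D. The groups did not overlap, and 3D replicate 3 came nearest to the 2D libraries. SLC11A2 rose by 0.75 on the log2 scale (SE 0.19, limma, adjusted p = 0.0438), with a ratio of means of 1.73. The call lay near the threshold and held in 6 of 16 alternatives. It was lost without the filter, without mitochondrial genes and without the trend (adjusted p = 0.101, 0.0517 and 0.0588), under median-ratio scaling (0.58, adjusted p = 0.0790) and quantile normalization (0.67, adjusted p = 0.0737), and without any single library other than 3D replicate 3 (adjusted p up to 0.157).

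TFRC, the receptor that binds iron-loaded transferrin at the cell surface, lies at chr3:196027183-196082189. It had 84.2, 108.7 and 55.9 TPM in 3D, against 51.6, 59.5 and 88.6 TPM in 2D. The groups overlapped, since 3D replicate 3 was low and 2D replicate 3 was high. The log2 difference was 0.30, with a 95% interval of -0.36 to 0.95 (limma, adjusted p = 0.497). Without both libraries numbered 3 the difference was 0.78 and passed the threshold (limma, adjusted p = 0.0257). The highest library was 1.94 times the lowest in 3D, the widest range there of the 8 genes, and 1.72 times in 2D, where only HMOX1 ranged wider, at 2.14 times.

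Of the ferritin chains, FTL fell and FTH1 did not pass the test. FTL, the light chain that helps iron to mineralise inside the shell, lies at chr19:48965301-48966878. It had 547, 626 and 664 TPM in 3D, against 928, 953 and 1279 TPM in 2D. All 3D libraries were below all 2D libraries, of which 2D replicate 3 was the highest. FTL fell by 0.77 on the log2 scale (SE 0.17, limma, adjusted p = 0.0285), with a mean of 612 ± 60.1 TPM in 3D and 1053 ± 196 TPM in 2D (SD, n = 3 each). The call held in 11 of 16 alternatives, both rescalings among them. It was lost without the filter (adjusted p = 0.0871) and on leaving out replicate 1 or 2 of 3D (adjusted p = 0.126 and 0.101) or of 2D (adjusted p = 0.0574 and 0.0772).

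FTH1, the heavy chain whose ferroxidase centre oxidises the entering iron, lies at chr11:61959718-61967660. It had 3955, 5183 and 3406 TPM in 3D, against 3993, 3866 and 4149 TPM in 2D. The 2D libraries lay inside the range of the 3D libraries, which were more scattered. The log2 difference was 0.04, with a 95% interval of -0.39 to 0.48 (limma, adjusted p = 0.899), and the sign turned with median-ratio scaling (-0.14) and on leaving out 3D replicate 2 (-0.12). FTH1 alone made up 0.418% of all TPM in 3D and 0.400% in 2D on average.

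TPM is scaled by length, so the chains can be set against each other within a library. FTH1 was 7.24, 8.28 and 5.13 times FTL in 3D, against 4.30, 4.06 and 3.24 times in 2D. All 3D ratios were above all 2D ratios, and within each culture replicate 3 was the lowest. The means were 6.88 ± 1.61 in 3D and 3.87 ± 0.55 in 2D (SD, n = 3 each), a 1.76-fold difference on the log scale. The exact two-sided permutation test gave p = 0.1, the smallest that 3 against 3 can give. The summed chains came to 4794 ± 906 TPM in 3D and 5056 ± 326 TPM in 2D (SD, n = 3 each), a difference smaller than the SD in 3D. FTL made up 12.1%, 10.8% and 16.3% of it in 3D, against 18.9%, 19.8% and 23.6% in 2D. Both chains have processed pseudogenes that can share reads with them. The 25 FTH1 pseudogene rows summed to 0.452% to 0.647% of FTH1 in the 6 libraries, and the 16 FTL pseudogene rows to 0.883% to 1.40% of FTL. How reads were divided among these copies is uncertain. BEST1, which overlaps FTH1 on the other strand, was at most at 1.43 TPM, and no other gene overlapping one of the 8 was above 1.76 TPM.

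**Figure D2:**
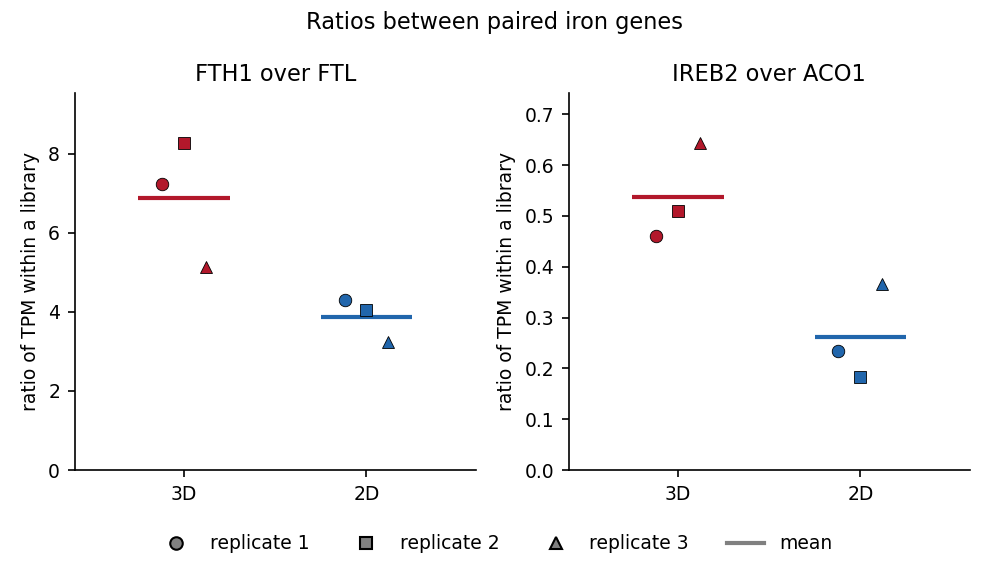
Ratio of FTH1 to FTL (left) and of IREB2 to ACO1 (right), from the TPM of each library, in 3D (red) and 2D (blue) culture; symbols give the replicate number, bars the mean, and axes start at 0. Both ratios were higher in all 3D libraries, at 5.13 to 8.28 against 3.24 to 4.30 and at 0.460 to 0.644 against 0.184 to 0.366.

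The genes of the iron regulatory proteins had differences of opposite sign, and neither passed the test. ACO1 encodes IRP1, which acts as cytosolic aconitase while it holds an iron-sulfur cluster and binds mRNA hairpins once it has lost it, and lies at chr9:32384603-32454769. It had 29.5, 27.7 and 26.3 TPM in 3D, against 48.2, 47.1 and 32.9 TPM in 2D. The groups did not overlap, and 2D replicate 3 stood much nearer to the 3D libraries than the other 2D libraries. The log2 difference was -0.58 (95% interval -0.98 to -0.19, limma, adjusted p = 0.0636). It passed the threshold in 4 of 16 alternatives: median-ratio scaling (adjusted p = 0.0328), quantile normalization (adjusted p = 0.0451), without 2D replicate 3 (adjusted p = 0.0153) and without both libraries numbered 3 (adjusted p = 0.0166).

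IREB2 encodes IRP2, which binds the same hairpins and is degraded when iron is plentiful, and lies at chr15:78437431-78501456. It had 13.6, 14.1 and 16.9 TPM in 3D, against 11.3, 8.67 and 12.0 TPM in 2D. The groups lay apart by a small margin. The log2 difference was 0.45 (95% interval 0.06 to 0.84, limma, adjusted p = 0.117), and it passed in none of the 16 alternatives (adjusted p from 0.0903 to 0.312). IREB2 stood at 0.460, 0.509 and 0.644 of ACO1 in 3D, against 0.234, 0.184 and 0.366 in 2D. All 3D ratios exceeded all 2D ratios, a 2.12-fold difference on the log scale, with p = 0.1 in the exact two-sided permutation test, again the smallest possible.

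HMOX1 encodes the inducible heme oxygenase, which opens the heme ring and frees its iron, and lies at chr22:35380361-35394214. It had 11.1, 11.2 and 11.0 TPM in 3D, against 6.13, 5.62 and 12.0 TPM in 2D. The 3D libraries were nearly equal, and 2D replicate 3 was above every one of them, so the groups overlapped. The log2 difference was 0.51 (95% interval -0.09 to 1.11, limma, adjusted p = 0.219). Without 2D replicate 3 it was 0.82 and passed the threshold (limma, adjusted p = 0.0188), as it did without both libraries numbered 3 (adjusted p = 0.0215).

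**Figure D3:**
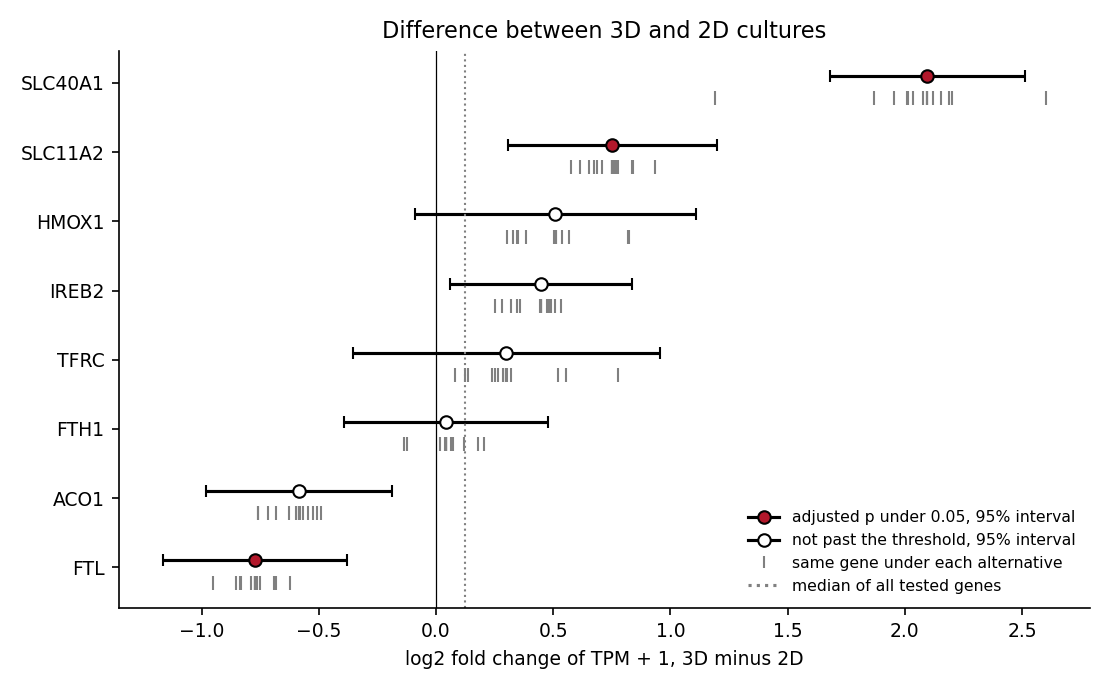
Log2 fold change of TPM + 1, 3D minus 2D, for the 8 genes, with 95% intervals; filled points had an adjusted p under 0.05, grey ticks give the same gene under each alternative setting, and the dotted line marks the median of all tested genes. SLC40A1 at 2.10 stood apart from the other genes, which lay between -0.77 and 0.75.

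Of the 8 genes, 2 rose (SLC40A1 and SLC11A2), 1 fell (FTL) and 5 did not pass the test. Among all tested genes 12.3% passed, 10.2% as higher and 2.12% as lower in 3D. The libraries of the cultures did not overlap for 5 of the 8 genes, against 36.7% of all tested genes. Without both libraries numbered 3, 4 rose (TFRC and HMOX1 added) and 2 fell (ACO1 added), and of all tested genes 23.5% passed there, 15.2% as higher and 8.24% as lower. The median of the 8 log2 differences was 0.37, against 0.12 over all tested genes.

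Levels on the TPM scale, which is per length, ran from FTH1 to SLC40A1 over more than 2 orders of magnitude. In 3D the order of the means was FTH1, FTL, TFRC (82.9 TPM), SLC11A2 (54.9 TPM), ACO1 (27.8 TPM), IREB2 (14.9 TPM), HMOX1 (11.1 TPM) and SLC40A1 (10.1 TPM). Neighbouring ranges overlapped in 3D for TFRC with SLC11A2 and for HMOX1 with SLC40A1. In 2D the order was FTH1, FTL, TFRC (66.6 TPM), ACO1 (42.8 TPM), SLC11A2 (31.8 TPM), IREB2 (10.7 TPM), HMOX1 (7.93 TPM) and SLC40A1 (1.59 TPM). There the ranges overlapped for ACO1 with SLC11A2 and for IREB2 with HMOX1. SLC11A2 stood above ACO1 in all 3D libraries and below it in all 2D libraries, and the exporter, which was 4.99 times below HMOX1 in 2D, came close to it in 3D.

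**Figure D4:**
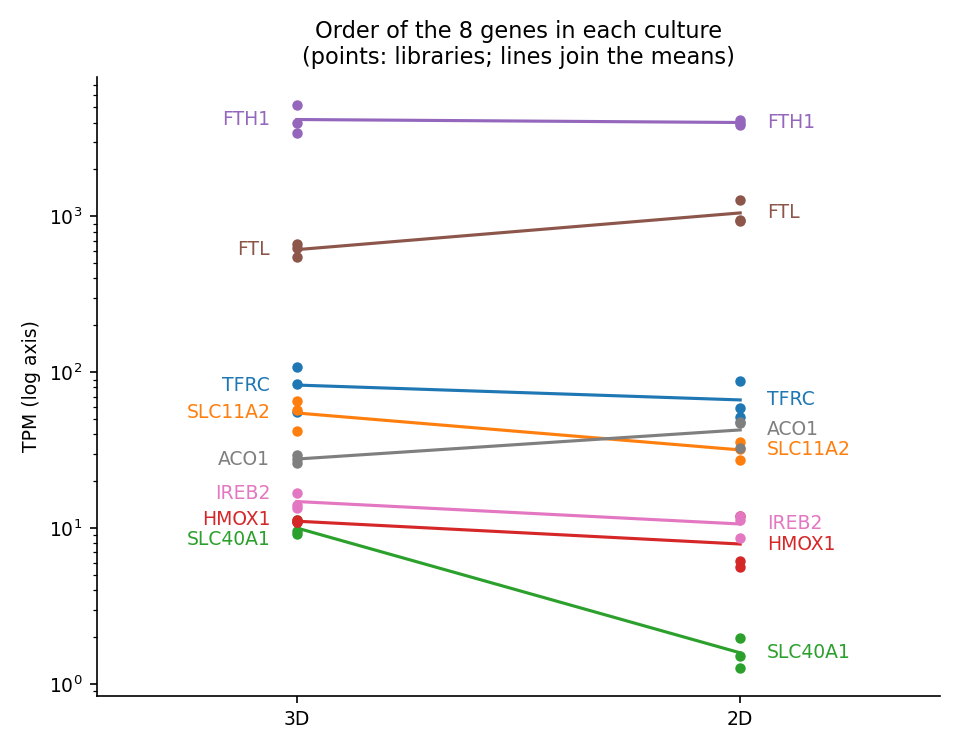
TPM of the 8 genes on a log axis in 3D (left) and 2D (right) culture; points are libraries and lines join the means. The lines of SLC11A2 and ACO1 cross, FTL is lower and FTH1 about level in 3D, and SLC40A1 lies at 10.1 TPM in 3D, close to HMOX1, against 1.59 TPM in 2D.

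Other genes of iron handling were read from lists. Of 17 genes of uptake and reduction, 14 were tested, 2 rose, none fell and 12 did not pass, with a median log2 difference of 0.15. Over all tested genes, 10.2% rose and 2.12% fell. STEAP4, a metalloreductase that can reduce ferric iron, had 7.09, 16.2 and 6.08 TPM in 3D, against 1.98, 1.88 and 1.05 TPM in 2D (log2 fold change 1.94, SE 0.35, limma, adjusted p = 0.0160). TF, which encodes transferrin, had 2.44, 2.03 and 4.77 TPM in 3D, against 0.32, 0.79 and 0.02 TPM in 2D (1.55, SE 0.33, limma, adjusted p = 0.0270). TF passed the filter only through its 3D level, since its mean in 2D was 0.377 TPM, so its place among the calls is no support for the list. STEAP4 lost its call without the filter, 3D replicate 1 or 2D replicate 2 (adjusted p up to 0.0614). TF lost it without the filter, under quantile normalization and on leaving out 3D replicate 1 or 2, or replicate 1 or 2 of 2D (adjusted p up to 0.0821). Their sizes depended on the pseudocount, at 2.42 and 1.10 for STEAP4 and 3.07 and 0.57 for TF with 0.1 and 5. Without both libraries numbered 3, 4 of the 14 rose, against 15.2% of all tested genes in that setting.

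None of the 6 tested genes of storage, chaperoning and export passed, against 12.3% of all tested genes. CP, or ceruloplasmin, a copper ferroxidase that prepares exported iron for transferrin, had 563, 594 and 300 TPM in 3D, against 238, 154 and 31.1 TPM in 2D. Its groups did not overlap, but the third library was the lowest of each, and the log2 difference of 2.13 missed the threshold (SE 0.69, limma, adjusted p = 0.0811). It passed without 2D replicate 3, without both libraries numbered 3 and with the replicate block (adjusted p = 0.0494, 0.00845 and 0.0150), and the difference was 1.27 without 2D replicate 3. PCBP2, a chaperone that delivers iron to ferritin, had 411 ± 48.0 TPM in 3D and 451 ± 15.4 TPM in 2D (SD, n = 3 each; limma, adjusted p = 0.508). HAMP, the hormone hepcidin that removes ferroportin protein, was at or near 0 throughout.

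Among 12 regulators of the iron regulatory proteins, of mRNA decay and of HMOX1 transcription, 6 rose, 1 fell and 5 did not pass. Over all tested genes, 10.2% rose and 2.12% fell. The median log2 difference of the list was 0.83, and the list was chosen with earlier results of these data known. ZFP36, which brings mRNAs with AU-rich elements to decay, had 174, 141 and 209 TPM in 3D, against 22.9, 15.1 and 18.1 TPM in 2D (log2 fold change 3.16, SE 0.20, limma, adjusted p = 0.000273). BACH1, a heme-sensing repressor of HMOX1, had 27.8, 35.8 and 17.4 TPM in 3D, against 11.6, 9.95 and 10.1 TPM in 2D (1.22, SE 0.25, limma, adjusted p = 0.0222). The small MAF genes MAFK and MAFF, whose proteins pair with BACH1 or with NRF2, rose by 1.46 and 1.35 (limma, adjusted p = 0.0199 and 0.0172). NFE2L2, which encodes NRF2, an activator of HMOX1 and ferritin genes, had 161, 135 and 111 TPM in 3D, against 66.6, 70.5 and 80.5 TPM in 2D (0.88, limma, adjusted p = 0.0172). The other rise was in ZFP36L1, a relative of ZFP36 (1.22, limma, adjusted p = 0.00425). The member that fell was HIF1A, the oxygen-sensitive factor that can activate TFRC and HMOX1, with 206, 180 and 171 TPM in 3D, against 335, 342 and 541 TPM in 2D (-1.09, limma, adjusted p = 0.0173). ZFP36 and ZFP36L1 kept the call in all 16 alternatives. BACH1, MAFK, MAFF, NFE2L2 and HIF1A each lost it on leaving out replicate 1 or 2 of 3D or replicate 2 of 2D, BACH1 and NFE2L2 also without 2D replicate 1, and all but NFE2L2 without the filter (adjusted p up to 0.0987). FBXL5, which marks IRP2 for degradation, had 34.9 ± 2.38 TPM in 3D and 33.3 ± 1.59 TPM in 2D (SD, n = 3 each; log2 difference 0.07, limma, adjusted p = 0.737).

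The lists for heme breakdown and iron-sulfur clusters held 1 call each, and of all tested genes 12.3% were called. Of 12 tested genes of heme breakdown and transport, 1 rose: LRP1, a large endocytic receptor that also clears heme bound to hemopexin, had 13.2, 14.1 and 9.65 TPM in 3D, against 5.23, 3.63 and 5.17 TPM in 2D (log2 fold change 1.22, limma, adjusted p = 0.0118), a call lost without 3D replicate 1 or 2 (adjusted p up to 0.0696). HMOX2, the constitutive heme oxygenase, had 54.0 ± 10.3 TPM in 3D and 46.1 ± 3.93 TPM in 2D (SD, n = 3 each; limma, adjusted p = 0.415). Of 26 genes of iron-sulfur cluster assembly, 1 fell: NFS1, the cysteine desulfurase that supplies sulfur, had 36.2, 28.7 and 33.7 TPM in 3D, against 50.5, 52.7 and 51.1 TPM in 2D (-0.64, limma, adjusted p = 0.0233). NFS1 was no longer called when replicate 1 or 2 of either culture was left out (adjusted p up to 0.0914). The medians of these lists were 0.13 and -0.13, against 0.12 over all tested genes. Median-ratio scaling turned the median of the uptake list to -0.02 and that of heme breakdown to -0.04.

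**Figure D5:**
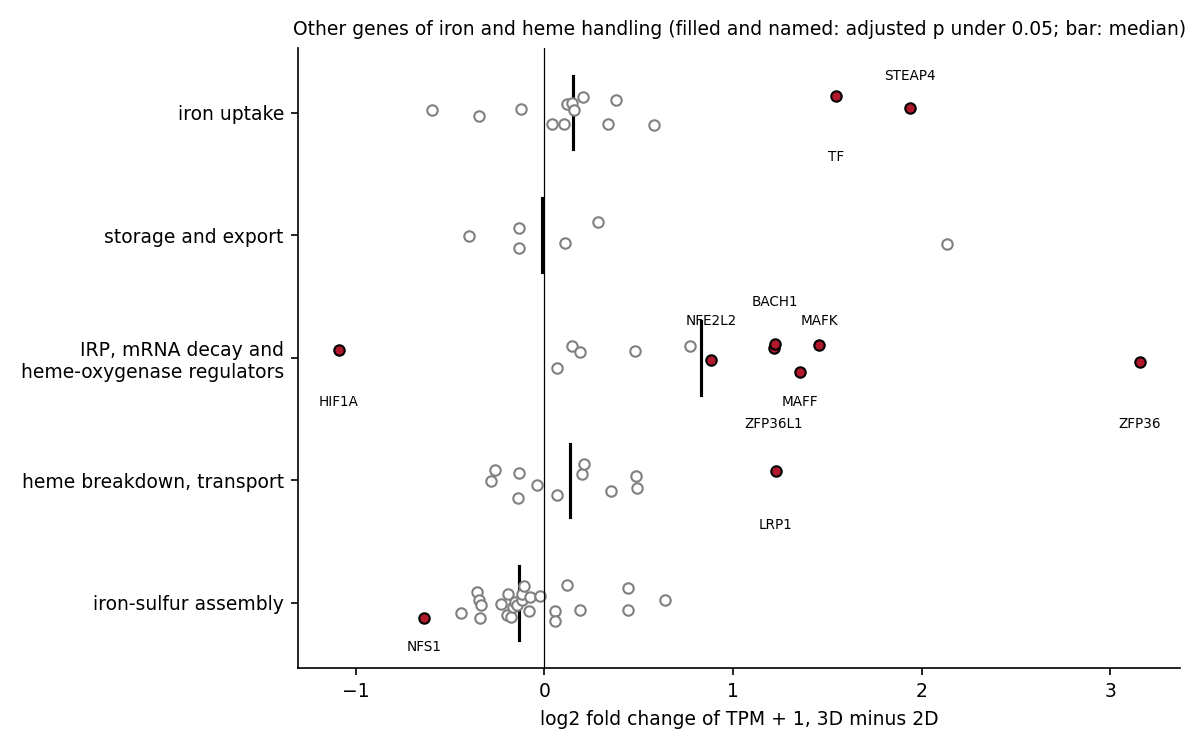
Log2 fold change of TPM + 1, 3D minus 2D, of the tested genes in 5 further lists; filled and named points had an adjusted p under 0.05, open points did not, and bars mark the median of each list. The median was 0.83 for the regulators and between -0.13 and 0.15 for the other 4 lists.

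Of 11 mRNAs known to carry an iron-responsive element, 10 were tested, 4 rose and 1 fell. Of all tested genes, 10.2% rose and 2.12% fell. Apart from SLC40A1, SLC11A2 and FTL, the called genes were CDC14A, a phosphatase with an element in a 3′ UTR, and CDC42BPA, a kinase, with log2 fold changes of 0.63 and 0.58 (limma, adjusted p = 0.0473 and 0.0498). These held their call in few alternatives (3 of 15 and 4 of 16), and with a pseudocount of 5 the values were 0.35 and 0.36. Under either rescaling, SLC40A1 was the only one of the 10 called as higher. SLC11A2, CDC14A and CDC42BPA kept their direction there but lost the call. Calls as lower numbered 2 with median-ratio scaling and 1 with quantile normalization. Among the 8 genes, 5′ UTR elements were found in an mRNA that rose (SLC40A1), one that fell (FTL) and one that did not pass (FTH1).

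By distance between centred log2 values over the 6 libraries, the genes most like SLC40A1 among 8255 compared were CCNL1, a cyclin tied to splicing, FAM13A, and EGR1, an immediate early transcription factor, at distances of 0.50, 0.50 and 0.51. CCNL1 had 272, 304 and 208 TPM in 3D, against 69.8, 74.7 and 69.3 TPM in 2D. The genes most like FTL were WRAP53, a protein of telomerase assembly, ACP6, a lipid phosphatase, and ATP5D, a subunit of ATP synthase, at distances of 0.13, 0.22 and 0.22. WRAP53 had 12.5, 14.3 and 16.2 TPM in 3D, against 22.4, 22.9 and 28.4 TPM in 2D. Likeness over 6 libraries from the same cultures is a description.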

How the data were processed

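Expression came as a TPM matrix that the authors deposited, with 1 column per library. The tools listed are cutadapt 2.3, STAR 2.7.0d and RSEM 1.3.1 with hg38, per the submitters' processing notes, which state no role or order; annotation release and strand setting are not given in these sources. The members, the lists and the rule for named genes were chosen with earlier results of these data known. limma 3.58.1 (eBayes with trend, R 4.3.3) was run on log2(TPM + 1), 3D minus 2D, for the 15042 genes whose mean reached 1 TPM. Tests were two-sided, p-values were adjusted by Benjamini-Hochberg across these genes, and 0.05 was the threshold. This scale understates changes of low genes. The procedure was tested on simulated data. Ratios were tested by exact permutation over libraries. The rule named all 8 members, up to 4 called genes per list by size of change or otherwise the 2 most abundant, and the 3 genes of at least 10 TPM most like the 2 members with the smallest p. ZFP36L1, NFE2L2, HIF1A, FBXL5, HMOX2, HAMP and CDC42BPA were named outside it, after their values were seen. A further list is not reported here. Of the listed symbols, 6 were matched by identifier. Coordinates and sequences came from GENCODE 29 on GRCh38, and the authors' release may be another. Alternatives were pseudocounts of 0.1 and 5, no filter or a mean of 5 TPM, median-ratio and quantile scaling, no mitochondrial genes, no trend, the replicate number as a block, and libraries left out.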

Additional observations from a re-analysis of the deposited data

How the results depend on the processing

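TPM gives no depth, so what depth limits is unknown here. SLC40A1 kept its direction and call under all 16 alternatives, and FTL and SLC11A2 kept their direction under all and their call under 11 and 6. Among the 8 genes, FTH1, which never passed the threshold, was the only one whose sign turned. Its log2 difference was -0.14 with median-ratio scaling and -0.12 without 3D replicate 2 (-0.12 to 0.18 with single libraries left out). Calls over all genes numbered 1855, with 815 without the filter, 3528 without both libraries numbered 3 and 356 to 2163 with single libraries left out. Calls among the 8 genes numbered 3, with 1 without the filter, 6 without both libraries numbered 3 and 1 to 4 with single libraries left out. The cause of these differences in number was not tested. The log2 difference of the FTH1 to FTL ratio, 0.81, lay between 0.67 and 1.01 with single libraries left out, and that of the IREB2 to ACO1 ratio, 1.09, between 0.86 and 1.36; no p under 0.1 was possible. The labels do not say whether equal replicate numbers mark a shared culture, so the libraries were not treated as pairs. Deviations from the group means correlated at 0.10, 0.04 and 0.19 for equal numbers. Of the 3D libraries, replicates 2 and 3 correlated best with their own number, and replicate 1 with 2D replicate 2 (0.13). These values do not show whether cultures were shared. With the replicate block 1874 genes were called in place of 1855.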
